A study of Bos taurus with 17 samples.

Results

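The genes that build cholesterol, and the SREBP system that controls them, were followed in bovine cumulus, the layer of somatic cells around the oocyte. The set was defined by a list of 32 gene symbols, and a probe belonged to it when its gene name or its description on the array named one of these genes. Among the 21475 non-control probes of the Agilent bovine array, which carry 20602 different gene names, 40 probes belonged to 31 of these genes. The remaining gene, STARD4, was matched by no probe. The wording of the rule alone reached 26 genes, and a table that pairs RefSeq accessions with symbols, or the description, added the others. All 31 genes had at least 1 valid probe, which is a probe well above background and not set aside as a non-uniform or saturated spot on a share of 0.8 or more of every stage's arrays, and 37 of the 40 probes were valid among 13865 valid probes in all.

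Each of 17 cumulus samples was hybridised to 1 single-colour array. NC1 cumulus came from immature oocytes of 6 calves before puberty (3 to 6 months old), and C1 cumulus from immature oocytes of 6 adult cows, in each case by post mortem aspiration of follicles of 3 to 6 mm with a compact cumulus. C2 cumulus surrounded mature oocytes of 5 non-lactating Holstein cows aged 3 to 5 years, which received progestagen implants, an FSH/LH preparation and prostaglandin F2α. It was expanded and was collected by ovum pick up from follicles of more than 8 mm, 60 h after the prostaglandin. Age and stage therefore cannot be told apart between NC1 and C1, nor can hormone treatment, follicle size, way of collection and stage between C1 and C2. Between NC1 and C2 all of these differ at once, age included, and cannot be told apart either.

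Cholesterol is made from acetyl-CoA in a chain of enzymes. The mevalonate arm ends in farnesyl diphosphate, and the sterol arm joins farnesyl units to squalene, closes the rings and trims lanosterol to cholesterol. SREBP transcription factors, encoded by SREBF1 and SREBF2, switch these genes on. Their precursors sit in the endoplasmic reticulum with the escort protein SCAP, are held there by INSIG proteins when sterols are plentiful, and are otherwise carried to the Golgi, where the proteases encoded by MBTPS1 and MBTPS2 release the active factor. In the mouse, oocytes are known to make little cholesterol themselves and to be supplied by their cumulus cells.

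The sequences below identify the transcripts on which the results turn most, 3 enzymes that rose at C2, 1 enzyme that fell and the 2 INSIG genes. They are the letters of the 60-base array probes as deposited, bases 1 to 30 of each probe except for DHCR7, where bases 31 to 60 are shown. Capitals mark AATAAA, the usual signal for adding the poly(A) tail, which was searched on the probe's own strand only. It was found in the probes of 4 of the 31 genes, 12.9%, and in 15.0% of all valid probes.
HMGCS1: tttttaaatgtagcctgaaatcgtgcactt
NSDHL: cacgaaacccattgactactacacggagac
DHCR7: ggacttctgtgtcacAATAAAgcaagtctc
MVK: ttggccgaaggcagggtcgatgtgcaatac
INSIG1: taccagattggaacatctagtgagattcac
INSIG2: tatcacagtgttgatgtgccaaaataattc

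Levels are given as the log2 scaled signal, the log2 of the background-corrected signal minus the median of the array, so that 0 is the array's median probe. They were compared between arrays for 1 probe at a time and not between genes. Changes are differences on this log2 scale from limma with the 3 stages in 1 fit, with the standard error (SE) of the fitted difference. A change was called at an adjusted p under 0.01, with Benjamini-Hochberg adjustment over all valid probes, and every adjusted p below comes from that test. The gene's valid probe with the highest mean signal stands for the gene. When no C2 array overlaps with the 6 arrays of another stage, a 2-sided exact permutation test gives p = 0.00433, the smallest it allows. Under this scaling the median of all valid probes was 0.11 higher at C2 than at NC1 and 0.02 higher than at C1.

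The arrays carried 66.2% to 82.8% of probes well above background, and none of their spots was saturated. The C2 arrays fell into 3 sets. Replicates 1 and 5 differed by an SD of 0.44 over the valid probes and replicates 3 and 4 by 0.51, while every other pair of C2 arrays, including each pair with replicate 2, differed by 1.05 to 1.27. Replicates 3 and 4 were scanned on the second of 2 days and the others on the first. Counts are therefore given with and without replicate 2, with the close arrays averaged, and within each scan day. Averaging the close arrays was chosen after seeing the data.

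Marker genes checked the samples. Of the cumulus and granulosa markers with a valid probe, 4 of 6 fell at C2 against C1 (FSHR, AMH, CYP19A1 and FST), and 4 of 5 cumulus expansion genes rose (TNFAIP6, PTX3, HAS2 and PTGS2). Sums of marker signal add unlogged values, so the brightest probes of a list weigh most, as INHA, INHBA and FST do here. FSHR, a dimmer probe, lay below every C1 array on all 5 C2 arrays, whatever the sum. The summed scaled signal of the 7 cumulus and granulosa markers lay between 3520 and 8352 on NC1 arrays and between 3518 and 5104 on C1 arrays. At C2 it was 1244 and 1169 on replicates 1 and 5, 2791 on replicate 2, and 4226 and 4393 on replicates 3 and 4. Oocyte markers with a probe, 10 in number, summed to 58.0 to 138.7 at NC1, 5.42 to 53.6 at C1 and 3.36 to 7.92 at C2, where ZP2, BMP15, ZAR1, DAZL and FIGLA were well above background on no array. The 8 leukocyte markers summed to 23.1 to 46.6 at NC1, 20.9 to 38.6 at C1 and 18.2 to 66.3 at C2, and 3 of 7 with a valid probe rose against C1. The 5 endothelial markers summed to 1.18 to 2.51 at NC1, at most 1.36 at C1 and 2.56 to 11.2 at C2, where KDR rose and CDH5 was well above background on no array. Other endothelial markers went the other way, as TEK fell by 1.61 against NC1 (adjusted p = 1.85e-05) and PECAM1 differed by -0.70 from C1 and -1.06 from NC1, neither called, and the median of the 4 with a valid probe was -0.11 against C1 and -0.30 against NC1. Of 6 theca and stroma markers COL1A1 was called higher against C1 by its brightest probe. The brighter DCN probe differed by -0.07 from C1, but a dimmer valid DCN probe rose by 4.08 against C1 (adjusted p = 1.17e-05), and relative to NC1 by 3.29 (adjusted p = 0.000117), with no overlap. Finally, no red blood cell marker had a valid probe. In such bulk samples fewer cells of a type and less RNA per cell cannot be told apart, and the part of other cells in the changes below was not tested.

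Many cholesterol synthesis genes rose at C2. In comparison to C1, 13 of the 31 genes rose at C2 (41.9%), against 15.3% of all valid probes, and 3 fell (9.68%), against 12.8%. In comparison to NC1, 13 genes were again higher, against 15.5% of the valid probes, and 3 lower, against 12.6%. In each comparison 16 genes were thus called, against 28.1% of the valid probes in either direction. Most of the genes that rose were enzymes of the mevalonate and sterol arms. Of the 19 genes of these arms, 11 rose against C1 and 10 against NC1, while 1 fell in each comparison. The median change of these 19 genes was 1.13 against C1 and 1.27 against NC1. Over the 31 genes it was 0.72 and 0.64, and over all valid probes it was 0.02 and 0.11. The C2 arrays lay above all C1 arrays for 7 of the 31 genes, against 10.7% of the valid probes, and below them for 3, against 11.0%. For NC1 these counts were 7, against 10.6%, and 2, against 10.3%. The moderated F over the 3 stages called 16 of the 31 genes, against 28.6% of the valid probes. The 2 comparisons share the C2 arrays and are not independent.

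**Figure D1:**
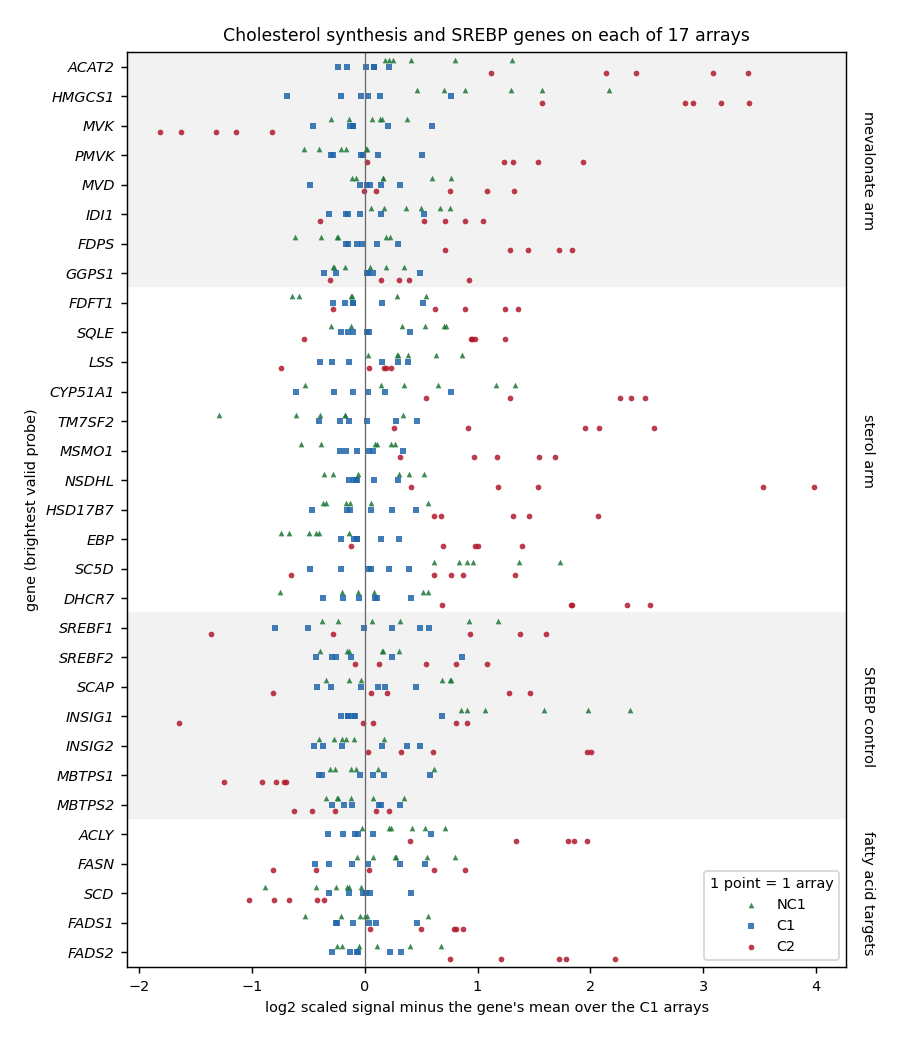
Log2 scaled signal of the 31 genes on each of the 17 arrays (1 point per array), as the difference from the gene's mean over the 6 C1 arrays. Genes are grouped as mevalonate arm, sterol arm, SREBP control and fatty acid targets. All C2 points lie to the right of all C1 points for 6 of the 19 genes of the arms and for FADS2, and to the left for MVK, MBTPS1 and SCD, and the C2 and C1 points overlap in the other genes.

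In the mevalonate arm, HMGCS1 showed the largest rise against C1 and ACAT2 the largest against NC1. It encodes the cytosolic synthase that joins acetyl-CoA to acetoacetyl-CoA. Its log2 scaled signal spanned 6.29 to 8.00 (median 6.92) on the NC1 arrays and 5.14 to 6.60 (median 5.83) on the C1 arrays, and at C2 it was 9.24, 7.41, 8.99, 8.74 and 8.67 on replicates 1 to 5. All C2 arrays lay above all C1 arrays, and 4 of 5 lay above all NC1 arrays. The change relative to C1 was 2.78 (SE 0.34, adjusted p = 3.96e-06), which is 6.85-fold, and 1.60 against NC1 (SE 0.34, adjusted p = 0.00112). The latter was 1.40 with the close C2 arrays averaged and then missed the threshold (adjusted p = 0.0126).

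ACAT2, the cytosolic thiolase that makes acetoacetyl-CoA, had the other large rise of the arm. Its signal ranged from 0.30 to 0.75 (median 0.58) at C1 and from 0.72 to 1.84 (median 0.86) at NC1, and was 2.94, 1.65, 3.62, 3.93 and 2.67 on the C2 arrays. The groups of C1 and C2 did not overlap, and replicate 2 was the lowest C2 array, inside the NC1 range. ACAT2 rose by 2.43 against C1 (SE 0.32, adjusted p = 7.56e-06), and relative to NC1 by 1.90 (SE 0.32, adjusted p = 0.000107).

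MVK, the kinase that phosphorylates mevalonate, moved the other way. Its signal spanned 7.90 to 8.56 (median 8.29) at NC1 and 7.73 to 8.78 (median 8.09) at C1, and was 7.37, 6.38, 6.57, 6.87 and 7.05 on the C2 arrays, below every array of the other stages. MVK fell by 1.34 against C1 (SE 0.21, adjusted p = 5.79e-05), which is 2.54-fold, and by 1.39 against NC1 (SE 0.21, adjusted p = 4.17e-05). The enzyme of the following step, PMVK, rose by 1.21 against C1 (SE 0.26, adjusted p = 0.00122), and relative to NC1 by 1.42 (SE 0.26, adjusted p = 0.000296). PMVK was at 4.46, 2.55, 3.77, 4.07 and 3.84 at C2, so that replicate 2 stayed within the C1 range of 2.23 to 3.03 and 4 of 5 arrays lay above it. Its rise against C1 was 1.01 and missed the threshold with the close C2 arrays averaged (adjusted p = 0.0137).

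FDPS, which makes farnesyl diphosphate, rose on every C2 array. Its signal spanned 6.47 to 7.31 (median 6.85) at NC1 and 6.92 to 7.38 (median 7.04) at C1, and was 8.81, 7.80, 8.37, 8.92 and 8.53 at C2. The change relative to C1 was 1.40 (SE 0.21, adjusted p = 3.24e-05) and 1.58 against NC1 (SE 0.21, adjusted p = 9.27e-06). The 3 other genes of the arm were not called in either comparison. The decarboxylase gene MVD had a change of 0.65 against C1 (adjusted p = 0.0418) and the isomerase gene IDI1 one of 0.56 (adjusted p = 0.0681). GGPS1, which makes the geranylgeranyl diphosphate used for protein prenylation and so lies on a side branch, had the smallest change of the arm, 0.29 (95% interval -0.15 to 0.74).

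The sterol arm opens with 3 enzymes that were not called. FDFT1, squalene synthase, differed by 0.77 against C1 (SE 0.28, adjusted p = 0.0355), and relative to NC1 by 0.87 (adjusted p = 0.0186). SQLE, the oxygenase that makes squalene epoxide, was at 8.80, 8.51, 8.53 and 8.50 on C2 replicates 1, 3, 4 and 5, above the whole C1 range of 7.35 to 7.96, and at 7.03 on replicate 2, below it. Its change of 0.72 against C1 (SE 0.28, adjusted p = 0.0473) became 1.03 without replicate 2 (adjusted p = 0.000794). LSS, the cyclase that forms lanosterol, differed by -0.02 from C1 (95% interval -0.47 to 0.43) and by -0.44 from NC1 (95% interval -0.89 to 0.01), and a second LSS probe rose well above background only at C1, on 4 of its 6 arrays.

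After ring closure, 7 of the 8 enzymes rose. NSDHL, which takes part in removing the methyl groups at carbon 4, spanned 1.67 to 2.56 (median 2.16) at NC1 and 1.89 to 2.33 (median 1.96) at C1. On the C2 arrays it was 3.57, 2.44, 5.56, 6.01 and 3.22, the widest spread of any of the 31 genes (SD 1.55, n = 5), with replicates 3 and 4 far above the rest. The rise relative to C1 was 2.13 (SE 0.47, adjusted p = 0.00147) and 2.04 against NC1 (SE 0.47, adjusted p = 0.00212). Within scan day 1 it was 1.02 against C1 (adjusted p = 0.0516). Within scan day 2, where the close replicates 3 and 4 are the only C2 arrays, it was 3.77 (adjusted p = 5.6e-07).

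DHCR7, which reduces 7-dehydrocholesterol to cholesterol in the last step of one branch, ranged from 4.88 to 6.18 (median 5.63) at NC1 and from 5.25 to 6.03 (median 5.64) at C1, and was 7.95, 6.30, 7.45, 8.15 and 7.46 at C2. No C2 array overlapped with either stage, and replicate 2 lay closest to them. The rise relative to C1 was 1.84 (SE 0.29, adjusted p = 6.74e-05), which is 3.58-fold, and 1.82 against NC1 (SE 0.29, adjusted p = 8.05e-05).

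CYP51A1, the demethylase acting at carbon 14, rose by 1.79 against C1 (SE 0.37, adjusted p = 0.000901). Against NC1, where its signal spanned 0.07 to 1.93, the change was 1.27 and just missed the threshold (adjusted p = 0.0112), and without C2 replicate 2 it was 1.58 and passed it (adjusted p = 0.00137). TM7SF2, a sterol reductase acting at carbon 14, was at 2.53, 1.92, 0.23, 0.88 and 2.04 on the C2 arrays, against -0.44 to 0.43 at C1, so that replicates 3 and 4 were low here and replicate 2 was not. It rose by 1.55 against C1 (SE 0.35, adjusted p = 0.00179), and relative to NC1 by 1.94 (adjusted p = 0.000266), and by 2.11 within scan day 1 but 0.68 within scan day 2 (adjusted p = 0.205) against C1.

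MSMO1, the oxidase that starts removal of the carbon 4 methyl groups, rose by 1.13 against C1 (SE 0.23, adjusted p = 0.00071). HSD17B7, a reductase of the same steps, rose by 1.23 (SE 0.26, adjusted p = 0.000862), with all 5 C2 arrays (5.43, 6.13, 6.28, 6.89 and 5.49) above the C1 maximum of 5.27 and replicates 1 and 5 the lowest. The changes of these genes against NC1 were 1.18 and 1.29, both called. EBP, the isomerase that shifts the ring double bond, rose by 0.79 against C1 (SE 0.22, adjusted p = 0.0073), and relative to NC1 by 1.27 (SE 0.22, adjusted p = 0.00015). The rise of EBP against C1 missed the threshold under 16 of 31 alternatives, among them the slide as a block (0.80, adjusted p = 0.0108) and each C2 array but replicate 2 left out (0.64 to 0.81). SC5D, the desaturase just before the last reductions, was the exception of the group, and its change of 0.59 against C1 (adjusted p = 0.117) and -0.48 against NC1 (adjusted p = 0.2) did not pass.

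**Figure D2:**
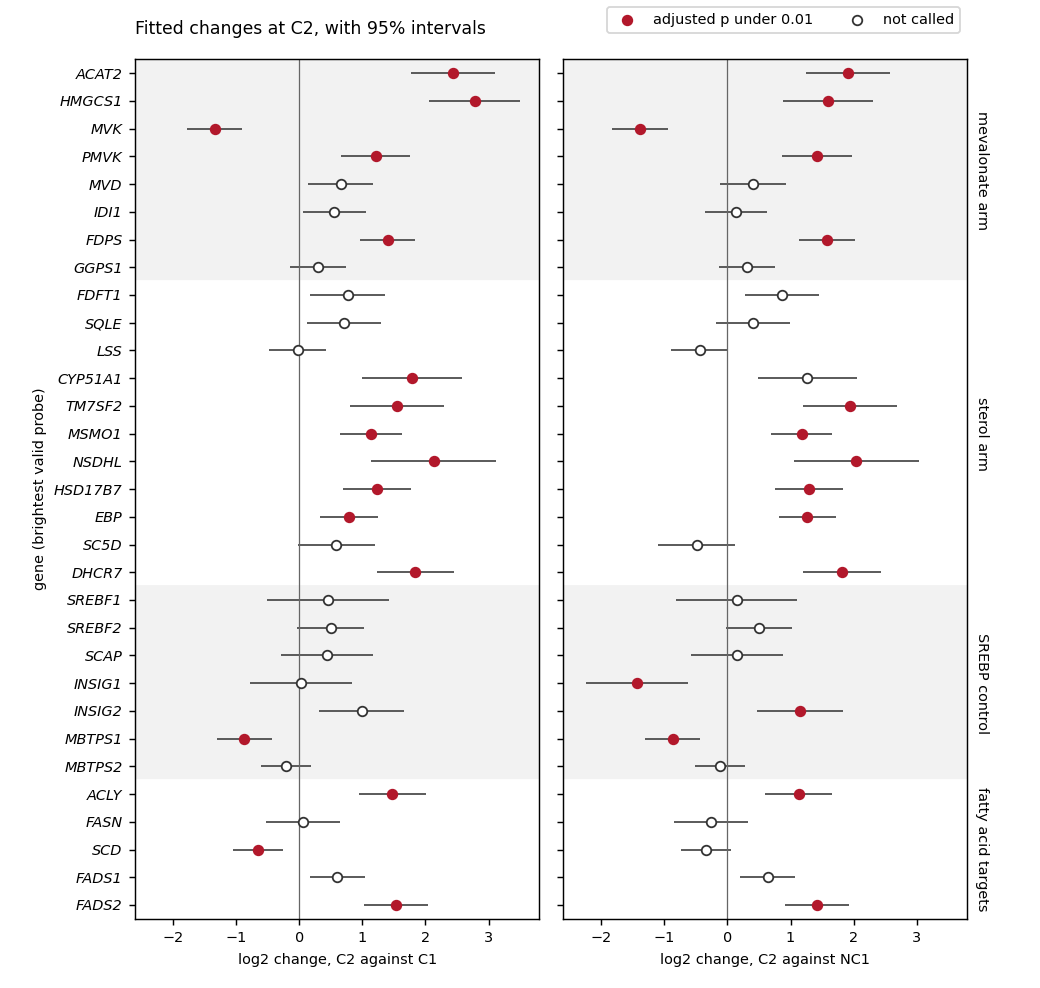
Fitted log2 change of each gene at C2 against C1 (left) and against NC1 (right), with bars for the 95% interval. Filled points have an adjusted p under 0.01. HMGCS1 has the largest change against C1 with 2.78, and MVK, MBTPS1 and INSIG1 lie clearly below 0 in the right panel.

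The SREBP control genes showed both directions. Against C1, 0 of 7 genes with a valid probe rose, against 15.3% of the valid probes, and 1 fell (14.3%), against 12.8%. Against NC1, 1 rose (14.3%), against 15.5%, and 2 fell (28.6%), against 12.6%. The median changes were 0.44 and 0.14. At an unadjusted limma p under 0.05, INSIG2 was higher than at C1 and MBTPS1 lower, 1 gene each of the 7, against 26.6% and 22.3% of the valid probes. SREBF2, whose product mainly drives cholesterol synthesis, spanned 6.55 to 7.25 (median 6.95) at NC1 and 6.51 to 7.81 (median 6.76) at C1, and was 8.03, 6.86, 7.07, 7.49 and 7.75 at C2. The groups overlapped, with a change of 0.50 against C1 (95% interval -0.03 to 1.02, adjusted p = 0.122). SREBF1, whose product mainly drives fatty acid synthesis, was at 2.22, 1.77, -0.52, 0.56 and 2.45 on the C2 arrays, above and below its C1 range of 0.05 to 1.41, with a change of 0.45 (95% interval -0.51 to 1.41). SCAP had a change of 0.44 against C1 (95% interval -0.29 to 1.17).

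The INSIG genes had opposite signs against NC1. INSIG1, itself a known SREBP target, spanned 7.19 to 8.68 (median 7.66) at NC1 and 6.12 to 7.02 (median 6.21) at C1, and was 6.41, 4.69, 7.24, 7.14 and 6.32 at C2. The C2 arrays lay on both sides of the C1 arrays, with a change of 0.03 (95% interval -0.78 to 0.83), and 4 of 5 lay below every NC1 array. INSIG1 fell by 1.43 against NC1 (SE 0.38, adjusted p = 0.00618), but the change was -2.02 within scan day 1 and -0.57 within scan day 2, with neither called. The call was lost under 11 of 31 alternatives, among them the slide block (-1.36, adjusted p = 0.0251), normexp background correction (-1.19, adjusted p = 0.0425), the replicate number as a block (-1.27, adjusted p = 0.0212), and C2 replicate 1 (-1.44, adjusted p = 0.0106), replicate 2 (-1.01, adjusted p = 0.0118) or replicate 5 (-1.42, adjusted p = 0.012) left out. It was also lost without NC1 replicate 2, 5 or 6, where the change was between -1.40 and -1.25. INSIG2 was at 4.05, 4.63, 6.03, 5.99 and 4.34 on the C2 arrays, against 3.62 to 4.19 at NC1 and 3.57 to 4.51 at C1. Its rise of 1.15 against NC1 (SE 0.32, adjusted p = 0.00816) and its change of 0.99 against C1 (adjusted p = 0.0199) were largest on replicates 3 and 4. The rise against NC1 missed the threshold under 17 of 31 alternatives, among them without C2 replicate 3 (0.89, adjusted p = 0.0275) and without C2 replicate 4 (0.90, adjusted p = 0.0276), and without C2 replicate 1 the change against C1 was 1.23 and passed it (adjusted p = 0.00429). Within scan day 2, where the close replicates 3 and 4 are the only C2 arrays, the change against C1 was 2.08 (adjusted p = 8.93e-05). Within scan day 1 it was 0.23 (adjusted p = 0.631).

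Of the proteases, MBTPS1, which makes the first cut in the SREBP precursor, fell. Its signal spanned 7.96 to 8.88 (median 8.17) at NC1 and 7.86 to 8.84 (median 8.28) at C1, and was 7.36, 7.02, 7.57, 7.55 and 7.48 at C2, below every array of the other stages. The change relative to C1 was -0.87 (SE 0.21, adjusted p = 0.00257) and -0.86 against NC1 (SE 0.21, adjusted p = 0.00275). Within scan day 1 the changes were -1.03 against C1 and -0.83 against NC1, within scan day 2 they were -0.65 and -0.84, and with the replicate number as a block -0.82 and -0.81, and none of these passed the threshold. The change against NC1 was also lost with normexp background correction, at -0.64 (adjusted p = 0.0139). MBTPS2, which makes the second cut, differed by -0.21 from C1 (95% interval -0.61 to 0.19) and by -0.12 from NC1.

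**Figure D3:**
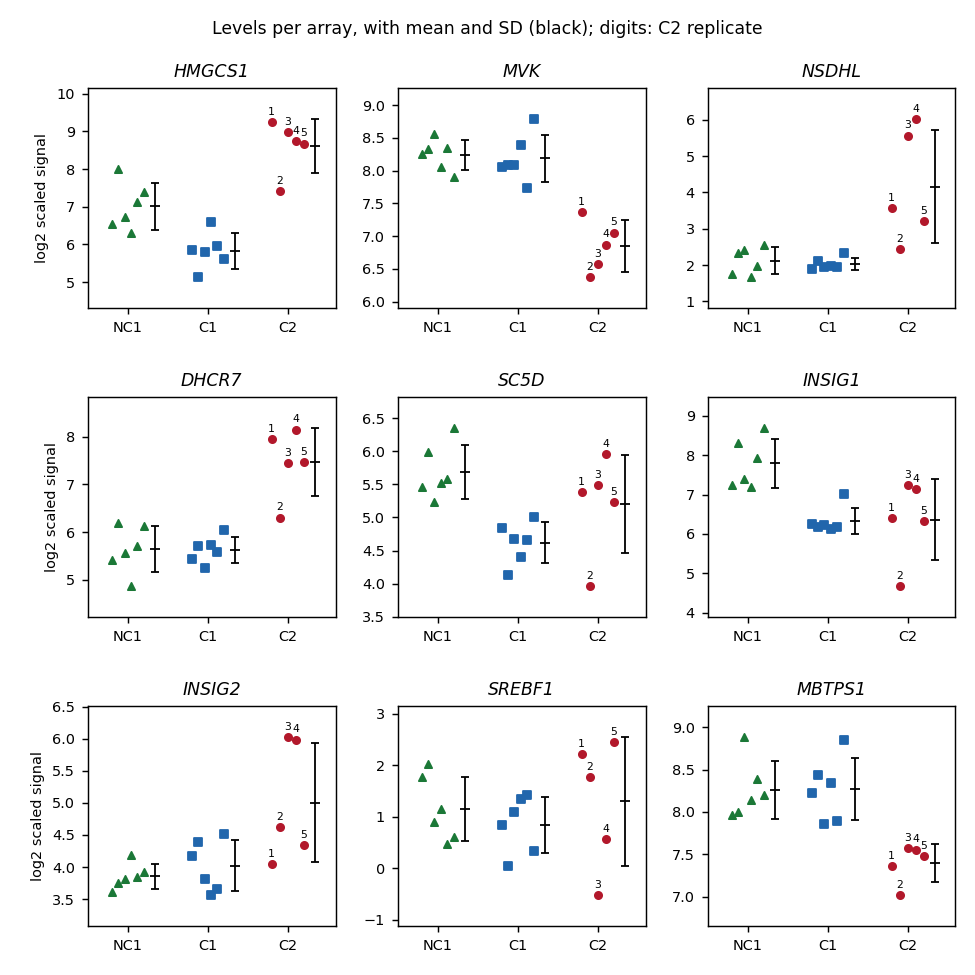
Log2 scaled signal of 9 genes on each array by stage, with the mean and SD of the stage in black beside the points and the replicate number over each C2 point. Vertical scales differ between panels and do not start at 0. C2 replicate 2 is the lowest C2 array in HMGCS1, MVK, NSDHL, DHCR7, SC5D, INSIG1 and MBTPS1. Replicates 3 and 4 are the highest in NSDHL, SC5D, INSIG1, INSIG2 and MBTPS1 and the lowest in SREBF1.

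Fatty acid genes under SREBP control were divided. ACLY, which makes cytosolic acetyl-CoA from citrate and so feeds both sterol and fatty acid synthesis, rose by 1.48 against C1 (SE 0.25, adjusted p = 0.000138), and relative to NC1 by 1.13 (SE 0.25, adjusted p = 0.00164), with C2 values of 8.24, 6.67, 8.13, 8.07 and 7.61 and a C1 range of 5.94 to 6.86. The rise against NC1 was 0.95 and missed the threshold with the close C2 arrays averaged (adjusted p = 0.0173). FADS2, a desaturase of polyunsaturated fatty acids, was at 6.81, 5.35, 5.80, 6.31 and 6.37 at C2, above the C1 range of 4.30 to 4.92 and the NC1 range of 4.35 to 5.26. It rose by 1.54 against C1 (SE 0.24, adjusted p = 5.47e-05), and relative to NC1 by 1.42. FADS1, a second desaturase of the series, had a change of 0.60 (adjusted p = 0.0258).

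FASN, the synthase that builds palmitate, was covered by 4 valid probes, none of them called in any comparison. On the brightest its change against C1 was 0.06 (95% interval -0.52 to 0.65), and on the 3 dimmer probes the changes were -0.20, -0.19 and -0.0026, so that these small differences did not share a direction. On all 4 FASN probes C2 replicates 3 and 4 lay below replicates 1 and 5, as at -0.75 and 0.57 against 2.03 and 1.93 on one of the dimmer probes. SCD, the desaturase that makes oleate, had 6 probes, 4 of them valid. On the brightest the signal was 9.33, 8.66, 8.88, 9.26 and 9.01 at C2, below the C1 range of 9.37 to 10.10, and the fall of 0.66 (SE 0.19, adjusted p = 0.00887) was close to the threshold, which it missed under 22 of 31 alternatives. The changes on the other valid SCD probes were -0.32, -0.13 and -0.83 against C1 and were not called.

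Between C1 and NC1 none of the 31 genes was called by limma, against 0.00721% of the valid probes higher at C1 and 0.0505% lower, 0.0577% together. At an unadjusted p under 0.05, 1 of the 31 was higher (3.23%) and 3 were lower (9.68%), against 5.01% and 4.84% of the valid probes. The largest differences were -1.46 for INSIG1 (SE 0.37, adjusted p = 0.102), -1.18 for HMGCS1 (SE 0.33, adjusted p = 0.139) and -1.07 for SC5D (SE 0.28, adjusted p = 0.11). For INSIG1 and SC5D all 6 C1 arrays lay below all 6 NC1 arrays (2-sided exact permutation test, p = 0.00216, the smallest that 6 against 6 allow), which held for 1.21% of the valid probes. SC5D spanned 4.13 to 5.01 at C1 and 5.23 to 6.35 at NC1. HMGCS1 was lower at C1 on 6 of 6 slides that held an array of each stage. The summed oocyte markers given above fell over the same stages, and their part in these differences was not tested. With array weights INSIG1 and SC5D passed the threshold as lower at C1, where 0.44% of the valid probes were called higher and 1.28% lower.

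The C2 arrays differed among themselves in these genes. C2 replicate 2 was the lowest of the C2 arrays for 27 of the 31 genes, against 37.3% of all valid probes, and for 17 of the 19 enzyme genes of the arms. The exceptions were TM7SF2 and SREBF1, lowest on replicate 3 (20.7% of the valid probes), and HSD17B7 and INSIG2, lowest on replicate 1 (16.7%). Replicate 4 was lowest for none of the genes (9.91%). Replicates 1 and 4 were each the highest C2 array for 12 genes, against 18.0% and 35.0% of the valid probes. As the median over the 8 genes of the mevalonate arm, the level minus the C1 mean was 1.52, 0.01, 1.06, 1.29 and 1.20 on C2 replicates 1 to 5. For the 11 genes of the sterol arm it was 1.24, 0.31, 0.97, 1.39 and 0.98. The medians of replicate 2 thus lay within the range of the single C1 arrays, which ran from -0.26 to 0.39 in the mevalonate arm and from -0.13 to 0.39 in the sterol arm, while the other C2 arrays lay above it. Over all valid probes the same measure lay between -0.09 and 0.17 on the C2 arrays. The summed expansion markers were lowest on replicate 2 as well, at 782 against 972 to 1565 on the others, and so were the leukocyte sum, at 18.2 against up to 66.3, and the endothelial sum, at 2.56 against 5.79 to 11.2. Single genes of the expansion and endothelial lists were divided. TNFAIP6, PTX3 and HAS2 were lowest on replicate 2, but PTGS2 was highest on it and VCAN was lowest on replicate 1. VWF was lowest on replicate 2, but TEK was highest on it, and KDR and PECAM1 were lowest on replicate 1. The theca and stroma sum was highest on replicate 2, at 271.8 against 156.3 to 211.0. Within that list INSL3 and COL1A1 were highest on replicate 2 and COL3A1 was lowest on it. The part of these marker lists in the low enzyme levels was not tested.

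Without C2 replicate 2, 18 genes were higher and 2 lower at C2 than at C1, against 18.1% and 12.7% of the valid probes. IDI1, FDFT1, SQLE, SC5D and FADS1 were gained and SCD was lost, and 15 of the 16 genes called with all arrays were called again. Against NC1, 16 were higher and 2 lower, beside 18.0% and 12% of the valid probes, with CYP51A1, FDFT1 and FADS1 gained and INSIG1 lost. With the close C2 arrays averaged, 11 genes rose and 2 fell against C1, beside 10.9% and 10.6% of the valid probes, where EBP, PMVK and SCD were lost, and 10 rose and 3 fell against NC1, beside 10.9% and 10.2%, where HMGCS1, ACLY and INSIG2 were lost. Of the 25 genes with a valid probe under the wording of the rule alone, 11 rose and 3 fell in each C2 comparison.

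Within scan day 2 most of the calls were made again, and within scan day 1 few were. The only C2 arrays of scan day 2 are the close replicates 3 and 4, so its calls leave out the spread among the other C2 arrays. Against C1, 14 genes rose and 1 fell within scan day 2, against 16.6% and 12.7% of the valid probes. Within scan day 1, which holds C2 replicates 1, 2 and 5, 3 rose, against 4.10%. Of the 16 genes called with all arrays, 12 were called again within scan day 2 and 3 within scan day 1, and against NC1 these numbers were 13 and 1. All 16 genes called against C1 had the same sign on each day. The C2 and C1 arrays were also compared on the 5 slides that held both stages. The C2 array was higher on 5 of 5 slides for ACAT2, HMGCS1, PMVK, FDPS, CYP51A1, MSMO1, NSDHL, HSD17B7, DHCR7, ACLY and FADS2. It was lower on 5 of 5 for MVK, MBTPS1 and SCD. For TM7SF2 and EBP, both called, it was higher on 4 of 5. FDFT1 and FADS1, which were not called, were also higher on 5 of 5. The share of all valid probes with such agreement was not counted. With the slide as a block, 12 genes rose and 2 fell against C1, beside 13.3% and 12% of the valid probes, and EBP and SCD were lost. Against NC1 the block gave 12 and 2 as well, beside 13.1% and 11.3%, and INSIG1 and INSIG2 were lost. The levels of replicates 3 and 4 were both above those of replicates 1 and 5 for 10 genes, 32.3%, against 38.3% of the valid probes, and both below for 9 genes, 29.0%, against 33.9%.

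**Figure D4:**
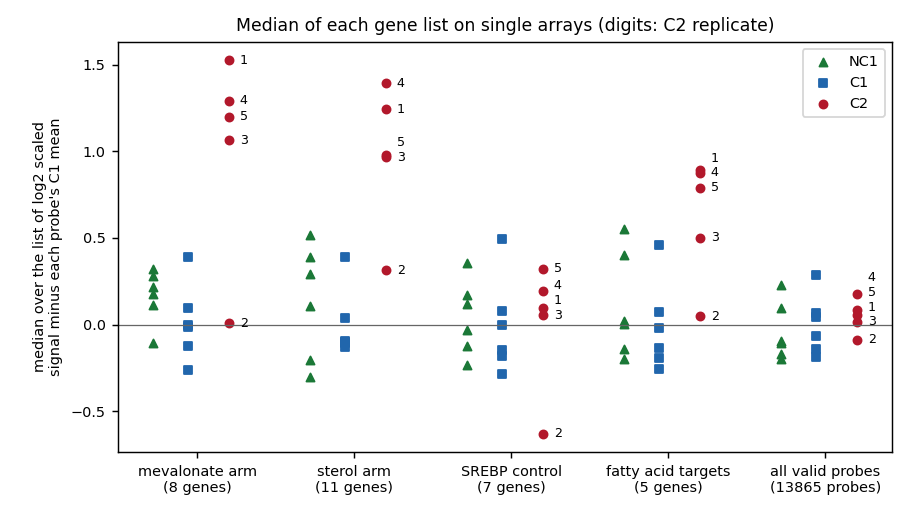
Median over each gene list of the log2 scaled signal minus the probe's C1 mean, for every array (1 point per array), with the C2 replicate number beside the C2 points and all valid probes at the right. In the mevalonate arm C2 replicates 1, 3, 4 and 5 lie between 1.06 and 1.52 and replicate 2 lies at 0.01.

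Further genes of the pathway were taken from lists of SREBP targets of fatty acid and glycerolipid synthesis, of sterol sensing and degradation, of electron donors for sterol enzymes and of isoprenoid branches. Of 39 such genes with a valid probe, 9 rose (23.1%) and 4 fell (10.3%) at C2 against C1, where 15.3% and 12.8% of the valid probes did. Against NC1, 12 rose (30.8%) and 4 fell (10.3%), beside 15.5% and 12.6%. Between the immature stages limma called none, where 1 was higher and 1 lower at an unadjusted p under 0.05. The median change was 0.28 against C1. By list, 4 of 12 fatty acid and glycerolipid genes rose and 1 fell, 1 of 13 sensing and degradation genes rose and 2 fell, 3 of 5 electron donors rose, and among 9 isoprenoid genes 1 rose and 1 fell, all against C1.

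The largest rise of these was that of NR1H3, the oxysterol receptor LXR alpha, which spanned 3.70 to 4.18 at C1 and 5.28 to 6.07 at C2 with no overlap. It rose by 1.81 against C1 (SE 0.18, adjusted p = 3.8e-07), and relative to NC1 by 2.11 (adjusted p = 6.51e-08). LPIN1, a phosphatidate phosphatase, rose by 1.79 against C1 (SE 0.32, adjusted p = 0.00021), ACSS2, which makes acetyl-CoA from acetate, by 1.63 (SE 0.21, adjusted p = 5.02e-06) and ACSL3, which activates long-chain fatty acids, by 1.37 (SE 0.33, adjusted p = 0.0029).

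The largest fall was that of MYLIP, the ubiquitin ligase that marks lipoprotein receptors for breakdown and is a known LXR target. It spanned 3.07 to 4.90 at C1 and 1.13 to 3.13 at C2, with 4 of 5 C2 arrays below all C1 arrays, and fell by 2.00 (SE 0.38, adjusted p = 0.000357), as it did on its other probe. ERLIN2, a membrane protein of the endoplasmic reticulum that takes part in degradation of sterol-regulated proteins, spanned 5.12 to 5.93 at C1 and 3.61 to 4.02 at C2 and fell by 1.62 (SE 0.19, adjusted p = 1.88e-06). ME1, the cytosolic malic enzyme that yields NADPH, fell by 0.98 (SE 0.19, adjusted p = 0.000452), and PDSS2, which takes part in making the ubiquinone side chain, by 0.76 (SE 0.18, adjusted p = 0.00285). For NR1H3, LPIN1, ACSS2, ERLIN2, ME1 and PDSS2 the C1 and C2 arrays did not overlap.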

How the data were processed

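The authors deposited 1-colour Agilent scanner intensity values (Cy3), from Feature Extraction 10.5.1.1 per the labels, and a table of median-scaled log2 values. The background-corrected signal was log2-transformed, averaged over the spots of a probe and centred on the median of each array. Low-signal probes and control spots were left out, which leaves 13865 probes. Models were fitted with limma 3.58.1 in R 4.3.3 over all valid probes, with Benjamini-Hochberg adjustment and a threshold of 0.01. The procedure was tested on simulated data in which a probe had the same spread at all stages. For C2 against C1 it called 0% of true log2 changes of 0.5, 30% of 1, 84% of 2 and 94% of 4. Changes of 1 or less were thus often missed there. Exact permutation tests used scipy 1.17.1. RefSeq symbols came from ARS-UCD2.0. Every gene of the list is named, and of the other pathway genes the 4 largest called rises and the 4 largest called falls against C1. The genes and lists were chosen with earlier results of these data known. Alternatives were other scalings, normexp background correction, the deposited table, slide, scan day or replicate number in the model, array weights, the mean over probes, and arrays left out. The number of arrays per stage equals the number of animals the study gives, so each sample was taken as a single animal. Promoter sequence was not used here.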

Additional observations from a re-analysis of the deposited data

Results flagged for a closer look

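Among 93 groups of 5 or 6 arrays (31 genes in 3 stages) 3 held an array far from the others by Dixon's test, and chance gives such a mark in about 1 of 20 groups. SQLE was lowest on C2 replicate 2, at a log2 scaled signal of 7.03, with the other C2 arrays between 8.50 and 8.80. LSS was lowest on the same array, at 4.28, with the others between 5.06 and 5.25. INSIG1 was highest on C1 replicate 6, at 7.02, with the other C1 arrays between 6.12 and 6.24.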

How the results depend on the processing

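With all arrays, 16 of the 31 genes were called at C2 against C1, 16 against NC1, none between C1 and NC1, and 16 over the 3 stages. No called change turned its direction under any alternative run. With all arrays, 3892, 3893, 8 and 3969 of the 13865 valid probes were called in these same tests. Among the 31 genes, leaving out 1 array at a time gave 14 to 20 calls against C1 and 14 to 18 against NC1. It gave 0 between C1 and NC1 and 15 to 20 over the stages. Over all valid probes it gave 3358 to 4266, 3363 to 4153, 1 to 19 and 3429 to 4292. For the other pathway genes, with 13 calls against C1 and 16 against NC1, it gave 11 to 16 and 10 to 16, the lowest count against NC1 coming without C2 replicate 3. Within scan day 1, calls fell to 3 against C1, 1 against NC1 and 1 over the stages, and to 5 and 4 for the other pathway genes. Over all valid probes they fell to 1361 against C1, 1397 against NC1 and 1295 over the stages. Within scan day 2, where replicates 3 and 4 are the only C2 arrays, 15 genes were called against C1 and 15 against NC1. Of all valid probes, 4066 were called there against C1 and 3475 against NC1. Each day holds only part of the arrays, and the cause of the difference between the days was not tested. With array weights 2 genes were called lower at C1 than at NC1, beside 1.28% of the valid probes, and 0 higher, beside 0.44%. Arrays with the same replicate number correlated by -0.32 to 0.25 after removal of the stage means, so the numbers were not taken to pair samples. With the replicate number as a block, 13 genes were called against C1, 13 against NC1, 0 between C1 and NC1 and 14 over the stages. The valid probes called in the same tests numbered 3202, 3088, 0 and 3048. Among the other pathway genes this block gave 10 calls against C1 and 10 against NC1. The number of arrays, and the wider spread at C2 (median SD 0.50 against 0.33 at C1), limit the precision.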
